A study of Mus musculus with 31 samples.

Results

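The mitochondrial ribosome is built from nuclear-encoded proteins, and 76 of their genes were followed here in mouse liver. The members were all genes of the array platform whose symbol is Mrpl or Mrps followed by a number and at most 1 letter, read from probe sets that carry exactly 1 symbol. They comprised 47 genes of the large subunit (Mrpl) and 29 of the small subunit (Mrps), out of 18147 genes with 1 symbol on the platform. Of their 156 probe sets, each gene was represented by the one with the highest mean over all arrays, and all 76 passed the filter on dim genes that left 12890 genes for testing. The rule uses symbols and mean levels and no measured difference, but it was set with earlier results of these data known. Because of probe sets with several symbols, Mrpl30 and Mrpl53 are not among them. By structure Mrps30 and Mrps18a sit in the large subunit, and Mrps36 is now assigned to the 2-oxoglutarate dehydrogenase complex; all 3 were kept under their symbols.

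The study gave PF-04287881, a candidate antibiotic known by its code name, to female mice. They belonged to the inbred strains WSB/EiJ, NZW/LacJ, MA/MyJ or SM/J and were 8 to 10 weeks old. They received either 600 mg/kg of the drug or its vehicle, sterile water, by oral gavage once a day for 7 days. The left liver lobe was frozen 24 hours after the last dose. Each group had 4 animals, one array per animal, except treated WSB/EiJ with 3, for 31 arrays in 8 groups. Each strain is 1 inbred genotype, and the p-values rest on how far single animals of a strain and treatment lay from one another. All values are log2 units per probe set, on which 1 unit is a 2-fold difference.

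The mitochondrial ribosome translates the few messenger RNAs of the mitochondrial genome, all of which encode subunits of the respiratory chain and the ATP synthase. Its large subunit forms the peptide bond and its small subunit reads the messenger. It descends from a bacterial ribosome, and several antibiotics that bind bacterial ribosomes also inhibit it. Hepatocytes, the main cells of the liver, are rich in mitochondria.

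Probe sets private to 1 strain were picked from the vehicle means, and all but 1 of the 15 treated arrays lay with their label. Positions were scaled so that 0 is the vehicle mean of the remaining strains and 1 that of the strain in question. The 16 vehicle arrays set these probe sets and scales, so their own positions are no independent check. The array labelled WSB/EiJ treated animal 3 lay at -0.00965 on the WSB/EiJ scale (193 probe sets) and at 1.01 on the NZW/LacJ scale (68 probe sets). On their own scale the remaining arrays of WSB/EiJ had positions from 0.762, in vehicle animal 4, to 1.10. Results for the members are therefore given over all arrays and, for the main counts and contrasts, again without treated animal 3, which leaves 2 treated WSB/EiJ animals. For other gene lists and cell markers most WSB/EiJ values are given over all arrays only. Liver identity was checked on hepatocyte markers: the mean level of 15 of them lay between 13.69 and 13.92 on every array. In bulk liver, fewer cells of a type and less RNA per cell cannot be told apart. The deposited scale also moved with treatment in NZW/LacJ, where the median of the tested genes rose by 0.11 from vehicle to treated arrays, against 0.06 in MA/MyJ, 0.03 in SM/J and -0.05 in WSB/EiJ. The median over genes of the treated minus vehicle difference was much smaller, at 0.03, 0.01, 0.00013 and 0.0083 in NZW/LacJ, MA/MyJ, SM/J and WSB/EiJ.

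Promoters of these genes are known targets of the respiratory factors NRF1 and NRF2 (the GABP complex) and of YY1. The 140 bases before the annotated start are shown for 5 members named further on for drug differences. Each of the 5 holds a match to a searched pattern, as not all members so named do. Mrps22 and Mrpl39 were among the members with the largest falls in WSB/EiJ, and Mrpl17 rose in NZW/LacJ and fell in WSB/EiJ. Mrpl9 fell in MA/MyJ, and Mrpl27 had one of the largest rises in the average over strains. The sequences are those of RefSeq on GRCm38.p6, 5′ to 3′ on the gene's strand, and capitals mark a match to the GABP core (CCGGAAG) or to the NRF1 palindrome (GCGCA followed by TGCGC) in which 1 of the central pair of bases, the A or the T, may be any base. In Mrpl17 it is the T that differs.
Mrps22: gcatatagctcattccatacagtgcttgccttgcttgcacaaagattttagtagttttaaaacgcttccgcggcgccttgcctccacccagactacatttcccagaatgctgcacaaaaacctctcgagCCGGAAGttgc
Mrpl39: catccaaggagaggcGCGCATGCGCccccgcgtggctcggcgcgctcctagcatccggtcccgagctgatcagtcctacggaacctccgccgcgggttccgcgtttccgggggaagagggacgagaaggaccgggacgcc
Mrpl17: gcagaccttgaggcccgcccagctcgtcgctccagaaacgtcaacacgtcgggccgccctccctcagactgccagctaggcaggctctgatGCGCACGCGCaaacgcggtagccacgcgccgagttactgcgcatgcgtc
Mrpl9: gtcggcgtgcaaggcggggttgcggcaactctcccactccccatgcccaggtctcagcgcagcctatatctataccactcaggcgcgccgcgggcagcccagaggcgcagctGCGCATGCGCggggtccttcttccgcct
Mrpl27: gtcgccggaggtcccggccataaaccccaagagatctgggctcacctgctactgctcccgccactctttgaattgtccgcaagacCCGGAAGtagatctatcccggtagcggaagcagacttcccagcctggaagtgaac

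The Mrps22 stretch lies at chr9:98601680-98601819 on the minus strand, with its GABP core at position -11 from the start. The Mrpl39 stretch lies at chr16:84735245-84735384 and that of Mrpl17 at chr7:105811088-105811227, both on the minus strand, with the NRF1 matches at -125 and -49. The Mrpl9 stretch lies at chr3:94443196-94443335 and that of Mrpl27 at chr11:94653651-94653790, both on the plus strand, with matches at -28 and -55. A promoter window of 300 bases, 250 before and 50 after the start, was at hand for 67 members. Both strands were searched, and the free-base NRF1 pattern contains the strict palindrome. The GABP core was in 25 of the 67 members (37.3%), in 18% of 10364 tested genes and in 8.86% of all 32851 windows of that length. The YY1 core AAGATGGC was in 12 members (17.9%), in 4.89% of tested genes and in 2.75% of all windows. The free-base NRF1 pattern was in 12 members (17.9%), in 10.5% of tested genes and in 4.6% of all windows, while the strict palindrome was in 3 members (4.48%), in 2.12% of tested genes and in 0.971% of all windows. The E-box CACGTG was in 5 members (7.46%), in 11.4% of tested genes and in 7.15% of all windows. Members with and without a fall in WSB/EiJ both held matches: the GABP core was in 13 of the 36 members with a promoter that fell without treated animal 3 and in 12 of the 31 others, the free-base NRF1 pattern in 6 and 6, and YY1 in 8 and 4. No searched pattern was matched in the windows of Mrpl1, Mrpl23, Mrpl24, Mrpl50, Mrps6, Mrps14 and Mrps15, also named further on for drug differences. A match is a run of letters and not a measured binding site.

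A score per animal, the mean over the 76 members of the difference from the strain's vehicle mean, differed most between treated NZW/LacJ and treated WSB/EiJ animals, while those of MA/MyJ and SM/J overlapped. The score of the 4 treated NZW/LacJ animals was 0.12, 0.10, 0.15 and 0.09, a mean of 0.11 ± 0.02 (SD, n = 4), and all 4 lay above the highest vehicle animal of the strain at 0.01. The treated WSB/EiJ animals stood at -0.27, -0.26 and -0.08, a mean of -0.20 ± 0.11 (SD, n = 3), the last value being the array in doubt. The vehicle animals of WSB/EiJ ran from -0.07 to 0.08, and the treated animals at -0.27 and -0.26 lay below them. The array in doubt lay narrowly below them, at -0.0764 against -0.0738, but had the NZW/LacJ pattern. Its mean level over the members was 10.44, between the vehicle means of NZW/LacJ (10.39) and WSB/EiJ (10.52). Its score therefore cannot count as a fall with drug in a further WSB/EiJ animal. Treated MA/MyJ animals lay between 0.0013 and 0.04, inside their vehicle range of -0.05 to 0.08. Treated SM/J animals lay between -0.13 and 0.04, with 3 of the 4 below the lowest vehicle animal at -0.03. The rise in NZW/LacJ depends on the scale: with each array centred on the median of its tested genes the score was 0.0018 there and -0.04 in MA/MyJ. In WSB/EiJ the fall became smaller but remained: over all arrays the centred mean level was 10.34 with drug and 10.49 with vehicle.

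**Figure D1:**
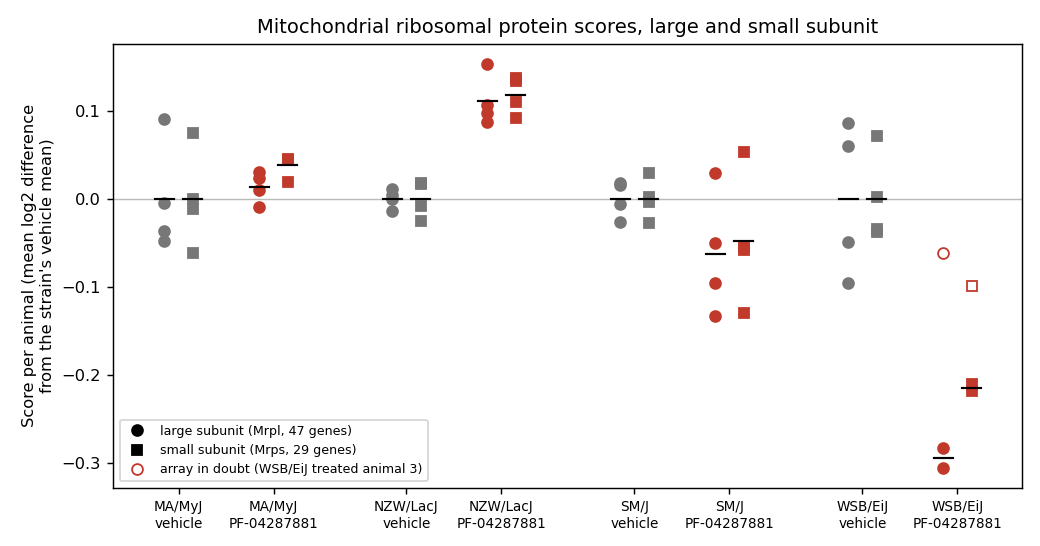
Score per animal (y axis, mean log2 difference from the strain's vehicle mean) for the large subunit (circles, 47 genes) and small subunit (squares, 29 genes) in each group of strain and treatment; bars are group means without the array in doubt, drawn open. The 4 treated NZW/LacJ animals lie above 0 on the deposited scale (0.0018 on average for all members once arrays are centred), and treated WSB/EiJ animals 1 and 2 lie at -0.27 and -0.26 for all members.

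In WSB/EiJ 27 of the 76 members fell over all arrays and 0 rose, where 12.4% and 6.91% of all tested genes were lower and higher (limma, Benjamini-Hochberg adjusted p under 0.05). At an unadjusted p under 0.05 limma had 37 members lower and 3 higher, against 18.2% and 13.9% of tested genes. Without treated animal 3, 39 members were lower and 1, Mrps23, was higher (0.25), against 18.6% and 13.8% of tested genes. The median difference of the members was -0.19 over all arrays and -0.26 without that animal, against 0.02 for all tested genes in both. Values were below 0 for 63 members over all arrays and for 65 without animal 3. The treated and vehicle arrays did not overlap, with treated lower, for 19 members (7.8% of tested genes) and for 44 without animal 3 (20% of tested genes). They did not overlap with treated higher for 0 members (6.31%) and for 1 without animal 3 (17.8%). These calls use the spread of all 8 groups. In a limma fit of WSB/EiJ arrays alone 0 members passed after adjustment, as did only 4 of all 12890 genes, and 20 were lower and 0 higher at an unadjusted p under 0.05 (9.57% and 5.72% of tested genes); without animal 3, 4 lower members passed there. Leaving out treated animal 1 left 14 members, all lower. Shares of tested genes are not given for either of these last counts, so they stand without a background.

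Mrps22, a small-subunit protein without a bacterial counterpart, changed most over all arrays. Its WSB/EiJ vehicle animals 1 to 4 stood at 10.18, 10.07, 9.68 and 10.12 and the treated animals 1 to 3 at 8.95, 9.09 and 9.90. Treated animals 1 and 2 lay well below every vehicle animal, and animal 3 lay among them. The difference was -0.70 ± 0.14 (model SE, adjusted p = 0.000692), and -0.99 ± 0.09 without animal 3 (adjusted p = 2.62e-08). Mrpl49 and Mrpl14, large-subunit proteins, also had treated animals 1 and 2 lowest. Mrpl49 stood at 9.56, 9.29, 8.88 and 9.69 with vehicle and at 8.21, 8.57 and 9.40 with drug, and Mrpl14 at 9.82, 9.80, 9.60 and 10.09 against 8.51, 9.15 and 10.02. In both genes animals 1 and 2 lay below all vehicle animals and animal 3 within them. Mrpl49 fell by 0.63 ± 0.18 (adjusted p = 0.0134) and Mrpl14 by 0.60 ± 0.19 (adjusted p = 0.0244). Without animal 3 these were -0.96 and -0.999 (adjusted p = 1.45e-05 and 3.69e-06). The call of Mrpl49 was lost without treated animal 1 or 2, and that of Mrpl14 without either of these or without vehicle animal 4.

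Mrpl39, a large-subunit protein with no bacterial counterpart, fell by 0.61 ± 0.12 in WSB/EiJ (adjusted p = 0.000766). It read 10.26, 10.11, 9.54 and 10.45 in the vehicle animals and 9.35, 9.46 and 9.63 in the treated ones. Treated animals 1 and 2 lay below all 4 vehicle animals, and animal 3 lay just above vehicle animal 3, the lowest. In NZW/LacJ, the strain whose pattern the array of treated animal 3 had, vehicle animals read 9.65 to 9.78. Mrpl1, the counterpart of the bacterial L1 stalk protein, read 9.67, 9.43, 9.25 and 9.86 against 9.09, 8.78 and 9.12 and fell by 0.55 ± 0.11 (adjusted p = 0.00104). Here treated animals 1 and 2 lay below the vehicle animals, and so did the array in doubt. NZW/LacJ vehicle animals read 8.90 to 8.99, so for that array strain level and a fall with drug cannot be told apart. Without it the difference of Mrpl1 was -0.62 (adjusted p = 0.000489). Mrps15, a small-subunit protein with a bacterial counterpart, read 10.83, 10.56, 10.23 and 10.76 against 9.77, 10.04 and 10.46. It fell by 0.50 ± 0.13 (adjusted p = 0.00564), a call lost without treated animal 1 (adjusted p = 0.0894), and vehicle animal 3 overlapped treated animal 3. Vehicle animal 3 was the lowest of its group for 34 of the 76 members, against 29.6% of tested genes, and its score of -0.07 was also the lowest.

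**Figure D2:**
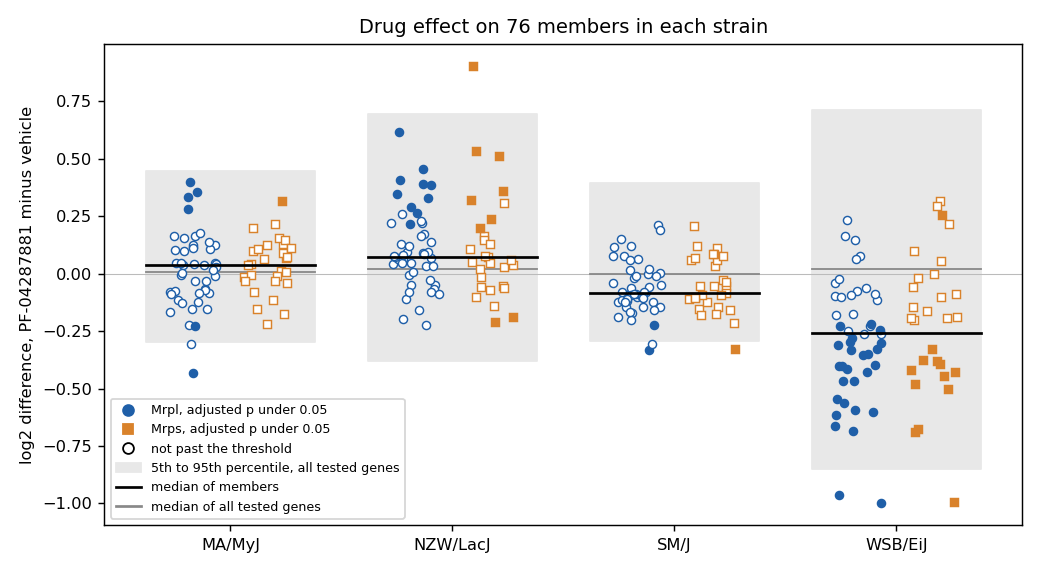
Drug effect (y axis, log2 treated minus vehicle) of each member in each strain, without WSB/EiJ treated animal 3; filled symbols passed adjusted p under 0.05, black lines are member medians, grey bands span the 5th to 95th percentile of all tested genes and grey lines their median. In WSB/EiJ the member median is -0.26 with 39 members lower and 1 higher; in NZW/LacJ it is 0.07 on the deposited scale, with 17 higher and 2 lower in this fit, against 18.3% and 8.35% of tested genes.

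In NZW/LacJ 16 of the 76 members rose on the deposited scale over all arrays and 1 fell, against 15.1% and 6.4% of all tested genes, so the share of members called higher (21.1%) was near the background. The median difference was 0.07, against 0.02 for all tested genes. Without WSB/EiJ treated animal 3 the counts were 17 and 2, against 18.3% and 8.35%. The 4 treated animals lay above the 4 vehicle animals for 26 members and below them for 4, against 22% and 11.9% of tested genes. The direction of the group rests on the scale: with arrays centred on their median, 9 members were higher and 8 lower. With arrays shifted by their gene-wise median, an alternative chosen after seeing the data, 15 were higher and 1 lower. With the mean of all probe sets of a gene in place of the brightest one, 10 were higher and 1 lower and the mean score was 0.06. The shares of tested genes in these alternative fits are not given. Leaving out treated animal 1 left 11 members, all higher, again without a share of tested genes given.

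The largest rise was that of Mrps6, a small-subunit protein with a bacterial counterpart. In NZW/LacJ it read 9.07, 9.04, 9.12 and 9.14 with vehicle and 10.11, 9.93, 9.76 and 10.19 with drug. The groups were far apart, and the difference was 0.90 ± 0.15 (adjusted p = 0.000135). Mrpl23, at the rim of the tunnel through which new peptides leave, read 10.28, 10.41, 10.36 and 10.33 against 11.09, 10.89, 11.09 and 10.78 and rose by 0.62 ± 0.10 (adjusted p = 9.43e-05). Mrps15 read 10.44, 10.36, 10.21 and 10.37 against 10.75, 10.93, 10.97 and 10.87 and rose by 0.54 ± 0.12 (adjusted p = 0.00149). The groups were separate in both genes. Mrps25, a small-subunit protein without a bacterial counterpart, read 8.55, 8.63, 8.60 and 8.67 against 9.26, 9.11, 9.12 and 9.02, also without overlap. It rose by 0.51 ± 0.16 (adjusted p = 0.0206), but its call was lost with arrays centred on their median (adjusted p = 0.0631), with the mean of its probe sets (0.29, adjusted p = 0.156) and without vehicle animal 1 or treated animal 1. Mrpl1 rose by 0.46 ± 0.10 (adjusted p = 0.00233) and Mrpl42, a large-subunit protein without a bacterial counterpart, by 0.41 ± 0.08 (adjusted p = 0.000532). Mrps23 was the 1 member called lower, at -0.21 ± 0.07 (adjusted p = 0.0330), a call lost in 6 of the 31 fits without 1 array (adjusted p up to 0.0863). Of these 7 genes only Mrps25 lost its call under centring.

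The difference between these strains was tested directly. The drug effect in NZW/LacJ minus that in WSB/EiJ was above 0 and passed in 32 members and was below 0 and passed in 1, against 16.6% and 7.42% of tested genes. Without treated animal 3 these were 39 and 1, against 21.6% and 11.4%. The median of this difference was 0.25 over all arrays and 0.35 without that animal, where all tested genes had 0.00014 and -0.0023. With arrays centred on their median 19 members passed above 0 and 5 below. In a fit of these 2 strains alone 20 passed, all above 0. The shares of all tested genes in these alternative fits are not given, so their counts stand without a background. The effect lay above 0 in NZW/LacJ and below 0 in WSB/EiJ for 48 members, 63.2% of them, against 27.6% of tested genes. A call in both, higher in NZW/LacJ and lower in WSB/EiJ, was made for 9 members, Mrpl1, Mrpl17, Mrpl24, Mrpl42, Mrpl48, Mrpl50, Mrps5, Mrps14 and Mrps15, against 3.51% of tested genes. Without animal 3 there were 13, against 4.99%. These calls rest on the brightest probe set of each gene. In NZW/LacJ other probe sets past the dim filter were below 0 for Mrps5 (-0.05, -0.09 and -0.35), Mrps14 (-0.0072) and Mrpl17 (-0.37). They were above 0 for Mrpl1, Mrpl48, Mrpl50 and Mrps15. Of 33 members with more than 1 such probe set, 18 had the same sign in all of them in NZW/LacJ, and 23 in WSB/EiJ without animal 3.

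Mrpl50, a large-subunit protein without a bacterial counterpart, gave the smallest p in this contrast. In NZW/LacJ it read 11.63, 11.76, 11.63 and 11.73 with vehicle and 12.06, 12.05, 12.04 and 11.99 with drug. In WSB/EiJ it read 11.98, 11.90, 11.89 and 11.95 with vehicle and 11.68, 11.58 and 11.56 with drug. The 2 strains moved in opposite directions without overlap of their groups, and the effects differed by 0.67 ± 0.09 (adjusted p = 7.51e-06). Without the array in doubt they differed by 0.65 (adjusted p = 1.43e-05). That array, at 11.56, had the NZW/LacJ pattern and lay below the vehicle animals of both strains. Its value therefore cannot count as that of a further treated WSB/EiJ animal. Mrpl42 read 11.14, 11.19, 11.22 and 11.28 against 11.53, 11.66, 11.64 and 11.66 in NZW/LacJ and 11.67, 11.55, 11.21 and 11.60 against 11.07, 11.01 and 11.12 in WSB/EiJ. Its groups were likewise separate in both strains, and the difference of effects was 0.85 ± 0.12 (adjusted p = 9.55e-06). The array in doubt, at 11.12, lay just below the NZW/LacJ vehicle values here. Without it the difference was 0.88 (adjusted p = 8.33e-06). Mrpl24, at the exit tunnel, differed by 0.62 ± 0.09 (adjusted p = 1.36e-05), Mrps14, in the head of the small subunit, by 0.74 ± 0.11 (adjusted p = 1.54e-05) and Mrpl1 by 1.01 ± 0.15 (adjusted p = 3.03e-05). The 8 genes with the smallest p also held Mrps15 (1.04 ± 0.17), Mrpl23 (0.86 ± 0.15) and Mrpl17 (0.82 ± 0.12). The value of Mrpl17 belongs to its brightest probe set: with the mean of its probe sets the difference was 0.13 (adjusted p = 0.300).

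**Figure D3:**
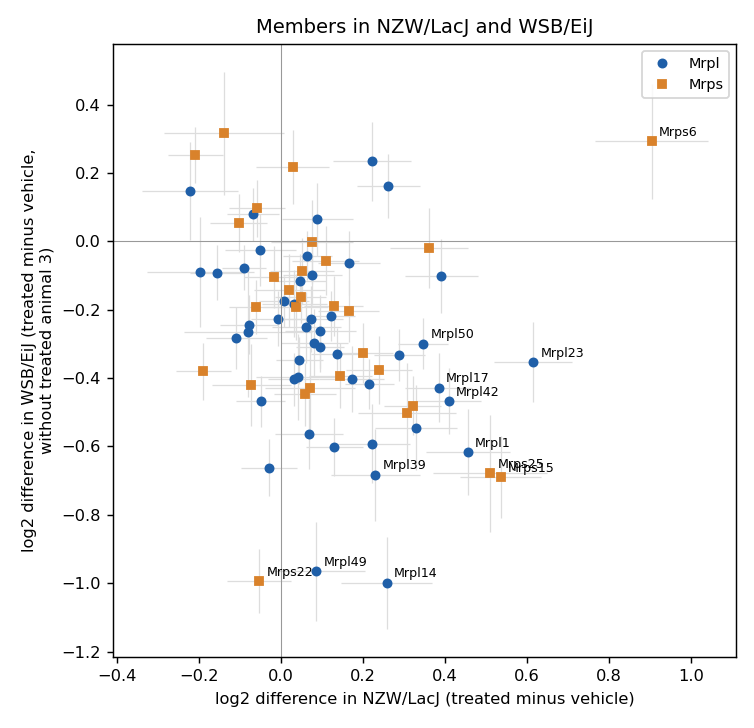
Drug effect of each member in NZW/LacJ (x axis) against that in WSB/EiJ without treated animal 3 (y axis), both log2 treated minus vehicle, with model standard errors; circles are Mrpl, squares Mrps. Of the 76 members 50 lie in the lower right part, above 0 in NZW/LacJ on the deposited scale and below 0 in WSB/EiJ; centring the arrays would move all points left by 0.11 and up by a smaller amount.

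A test over all 4 strains for an effect of treatment that differs by strain called 27 members, against 19.4% of tested genes, and 38 without animal 3, against 32.4%. With arrays centred on their median it called 16, a count for which the share of tested genes is not given. The smallest adjusted p belonged to Mrpl50 (6.05e-05), Mrpl42 (8.37e-05), Mrpl17 (0.000156), Mrpl24 (0.000161), Mrps14 (0.000189), Mrpl1 (0.000281), Mrps15 (0.000501) and Mrpl16 (0.000833). With the mean of its probe sets Mrpl17 did not pass (adjusted p = 0.194).

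**Figure D4:**
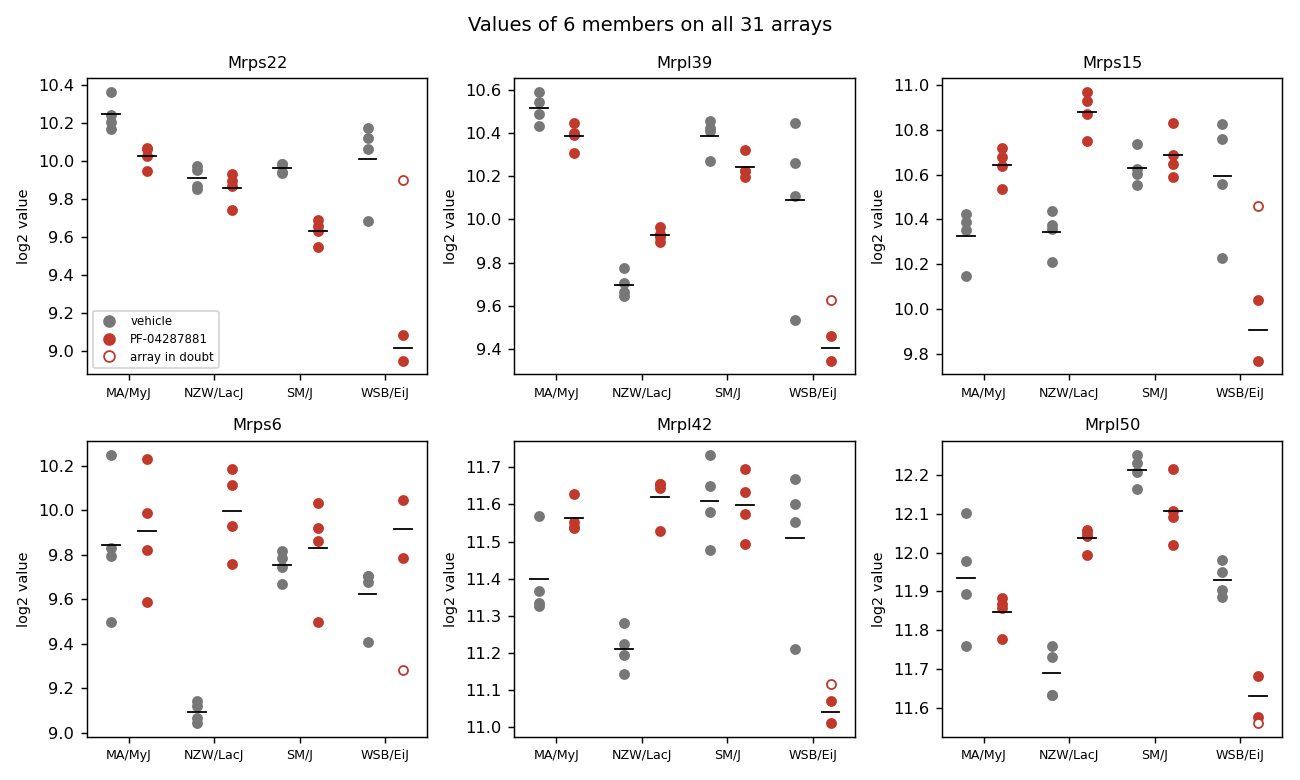
Log2 values (y axis) of 6 members on all 31 arrays, by strain (x axis) with vehicle in grey and drug in red; bars are group means without the array in doubt, drawn open. Mrps22 falls furthest in WSB/EiJ treated animals 1 and 2 (8.95 and 9.09), Mrps6 rises from about 9.1 in all NZW/LacJ vehicle animals, and the NZW/LacJ and WSB/EiJ groups of Mrpl42 and Mrpl50 separate in opposite directions.

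MA/MyJ showed few member changes. There 3 members were higher and 2 lower, against 3.17% and 0.978% of tested genes, with a median of 0.04 against 0.01 for all tested genes. Without WSB/EiJ treated animal 3, 5 were higher and 2 lower, against 5.21% and 2.09%. The groups did not overlap for 8 members with treated higher and 3 with treated lower, against 10.7% and 6.09%. Mrpl23 rose by 0.40 ± 0.10 (adjusted p = 0.0224): it read 9.98, 10.33, 10.18 and 10.20 with vehicle and 10.69, 10.46, 10.54 and 10.59 with drug, without overlap. Mrpl54, in the stalk that binds translation factors, rose by 0.36 ± 0.09 (adjusted p = 0.0287) and Mrpl27, in the central protuberance, by 0.33 ± 0.10 (adjusted p = 0.0442). Mrpl9, the counterpart of a bacterial large-subunit protein, read 10.33, 10.34, 10.44 and 10.12 against 10.15, 9.59, 9.87 and 9.89, where treated animal 1 overlapped the vehicle group. It fell by 0.43 ± 0.12 (adjusted p = 0.0318), and Mrpl38, also of the central protuberance, fell by 0.23 ± 0.06 (adjusted p = 0.0397). That value of Mrpl38 came from a probe set that can hybridise to several transcripts. Its other probe sets past the dim filter were at -0.11 and -0.06 in MA/MyJ. Each of these 5 calls was lost in 5 or more of the 31 fits without 1 array: between 0 and 7 members passed when single arrays were left out, with 0 left without vehicle animal 1 or vehicle animal 3, 1 without vehicle animal 2, treated animal 3 or treated animal 4, and 2 without treated animal 1 or treated animal 2 of MA/MyJ. Centred on array medians, the 3 rises were lost and 2 members were lower. Shares of tested genes are not given for the fits without 1 array or with centring.

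In SM/J the members lay slightly below vehicle, with a median of -0.08 against -0.0031 for all tested genes and 53 of 76 below 0. A single member passed, Mrpl4, against 0.993% of tested genes lower and 1.6% higher. None was higher, and at an unadjusted p under 0.05 limma had 8 members lower and 2 higher, against 6.63% and 7.85% of tested genes. Mrpl4, the counterpart of a bacterial large-subunit protein, read 11.12, 11.06, 10.97 and 11.07 with vehicle and 10.67, 10.81, 10.72 and 10.69 with drug. All 4 treated animals lay below all vehicle animals, and it fell by 0.33 ± 0.09 (adjusted p = 0.0428), a call lost in 16 of the 31 fits that left out 1 array. Without WSB/EiJ treated animal 3, Mrps22 (-0.33) and Mrpl10 (-0.22) passed beside it, 3 lower and 0 higher against 1.99% and 2.66% of tested genes. Mrps22 in SM/J read 9.98, 9.94, 9.99 and 9.94 against 9.66, 9.69, 9.55 and 9.64, so its groups were separate in SM/J. The treated and vehicle groups of SM/J did not overlap for 9 members with treated lower and 0 with treated higher, against 7.15% and 6.48% of tested genes.

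Averaged over the 4 strains, 4 members rose and 11 fell, against 13.3% and 8.92% of tested genes, and the median was -0.04 against 0.0043. Without animal 3, 6 rose and 18 fell, against 18.4% and 14.2%. With arrays centred on their median 4 rose and 21 fell, counts for which the shares of tested genes are not given. The rises were those of Mrps6 (0.28 ± 0.08), Mrpl27 (0.26 ± 0.05), Mrpl23 (0.24 ± 0.05) and Mrpl54 (0.22 ± 0.05). The largest falls were those of Mrps22 (-0.33 ± 0.06), Mrpl49 (-0.29 ± 0.08), Mrpl4 (-0.20 ± 0.05), Mrpl38 (-0.20 ± 0.03), Mrpl9 (-0.18 ± 0.06) and Mrps7 (-0.17 ± 0.05), the last a protein of the small-subunit head. Mrpl27 was the most even of the rises, at 0.33 in MA/MyJ. In WSB/EiJ it read 10.33, 10.21 and 10.41 with drug against 9.97, 9.78, 10.16 and 10.22 with vehicle, where treated animal 2 overlapped the vehicle group. The 10.41 is the array in doubt and lay within the NZW/LacJ vehicle values of 10.30 to 10.46, so it cannot count as a rise in WSB/EiJ. Without it the WSB/EiJ difference of Mrpl27 was 0.23. The call of Mrpl38 did not hold without probe sets that can hybridise to several transcripts (-0.07, adjusted p = 0.283), and that of Mrpl9 was lost in 3 of the 31 fits without 1 array.

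Both subunits held members that changed. In WSB/EiJ 19 of 47 large-subunit and 8 of 29 small-subunit members were lower (12.4% of tested genes), and 27 and 12 without animal 3 (18.6%). The large minus small score per animal was -0.09 and -0.07 in treated animals 1 and 2 and 0.04 in animal 3, against a vehicle range of -0.06 to 0.06. In NZW/LacJ 10 large and 6 small members were higher, near the 15.1% of tested genes, and the mean large minus small score was -0.01 ± 0.02 (SD, n = 4). That of SM/J was -0.01 ± 0.02 and that of MA/MyJ -0.02 ± 0.01, each with 4 animals. With the mean of all probe sets of a gene the sign turned in NZW/LacJ (0.04) and SM/J (0.01). With Mrps30 and Mrps18a counted as large and Mrps36 left out, the WSB/EiJ value went from -0.04 to -0.02 over all arrays. Members with and without a bacterial counterpart both fell in WSB/EiJ, counted with Mrps30 and Mrps18a as large and without Mrps36. Without animal 3 the lower members were 15 of 29 large-subunit proteins with a counterpart, 12 of 20 without, 9 of 16 small-subunit proteins with a counterpart and 3 of 10 without, against 18.6% of tested genes. Over all arrays these were 11, 8, 6 and 2, against 12.4%.

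Members at known sites of the ribosome were counted as well, against 12.4% of tested genes lower in WSB/EiJ (18.6% without animal 3) and 15.1% higher in NZW/LacJ. Of 6 members at the exit tunnel, 3 were lower in WSB/EiJ over all arrays, 5 without animal 3, and 3 were higher in NZW/LacJ. Of 7 in the central protuberance, 3 and 4 were lower in WSB/EiJ and 1 was higher in NZW/LacJ. Of 8 in the head of the small subunit, 2 and 3 were lower in WSB/EiJ and 1 higher in NZW/LacJ, and of 4 in the factor-binding stalk, 1 and 2 were lower and 1 higher. With so few members the single calls in NZW/LacJ are near the share of all tested genes.

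Without drug, the strains already differed in member levels. A test over the 4 vehicle groups called 45 of 76 members, near the 56.5% of all tested genes, and strain sequence differences under the probes can move such levels. The median range of the strain means was 0.30 for members and 0.39 for all tested genes. NZW/LacJ had the lowest vehicle mean for 38 of the 76 members (50%), against 27.6% of tested genes. Set against the mean of the other strains, NZW/LacJ had 2 members higher and 26 lower, against 11.6% and 16.9% of tested genes, with a median of -0.13 against -0.0071 for all tested genes. MA/MyJ had 17 higher and 5 lower, against 12% and 8.15%, WSB/EiJ 17 higher and 13 lower, against 20.7% and 17.7%, and SM/J 6 higher and 7 lower, against 9.97% and 10.7%. Without WSB/EiJ treated animal 3, which enters only through the spread, the test over the groups called 57 members, against 63% of tested genes. The vehicle arrays of NZW/LacJ also had the lowest median over tested genes, 8.55 against 8.57 to 8.63 in the other strains. With arrays centred on that median, NZW/LacJ had 6 members higher and 16 lower (17.1% and 12.7% of tested genes), a median of -0.07 against 0.05 for all tested genes, and the lowest vehicle mean for 27 members, against 20.5%. Centred, MA/MyJ had 10 higher and 5 lower (9.57% and 10.8% of tested genes), WSB/EiJ 12 and 16 (16.8% and 22.3%), and SM/J 7 and 6 (11.5% and 9.5%). On the deposited scale but without that treated animal the strains had 3 higher and 28 lower in NZW/LacJ (14% and 20.2% of tested genes), 20 and 6 in MA/MyJ (15.3% and 10.4%), 19 and 13 in WSB/EiJ (23.4% and 20%) and 8 and 7 in SM/J (13.3% and 13.6%). The total of 22 in MA/MyJ was 13 without its vehicle animal 1, 2 or 4, and the total of 13 in SM/J was 8 without its vehicle animal 3 and 7 without its vehicle animal 4. Shares of tested genes are not given for these smaller totals. The mean level over all members was 10.39 ± 0.01 in NZW/LacJ vehicle animals and 10.54 ± 0.06, 10.50 ± 0.02 and 10.52 ± 0.07 in those of MA/MyJ, SM/J and WSB/EiJ (SD, n = 4 each). In treated NZW/LacJ animals it was 10.50 ± 0.02, within the vehicle ranges of the other strains on the deposited scale. With centred arrays it was 10.45 ± 0.06, the same as in NZW/LacJ vehicle animals (10.45 ± 0.01) to 2 decimals and below the lowest vehicle animal of MA/MyJ (10.48) and SM/J (10.51).

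**Figure D5:**
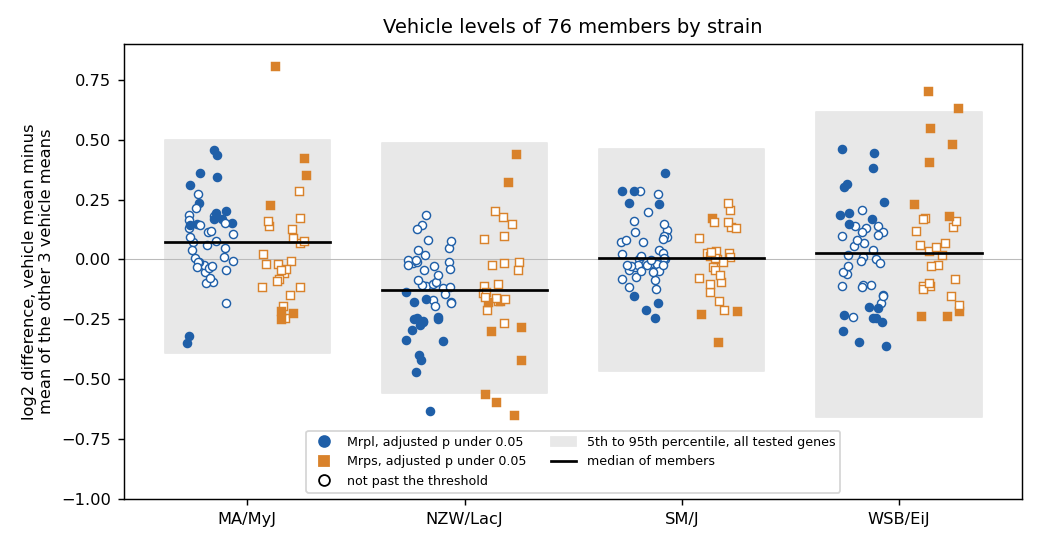
Vehicle level of each member in each strain (y axis, log2 mean of the strain's 4 vehicle animals minus the mean of the other 3 strains' vehicle means); filled symbols passed adjusted p under 0.05, black lines are member medians and grey bands the 5th to 95th percentile of all tested genes. NZW/LacJ shows 26 members lower and 2 higher, with a median of -0.13, on the deposited scale; with centred arrays it was 16 lower and 6 higher, with a median of -0.07.

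Mrps12, the counterpart of a bacterial protein of the decoding center, spanned the widest range of vehicle means, 1.03. Read from its only probe set, of a kind that can hybridise to several transcripts, Mrps12 had no other to set beside it. It read 11.47, 11.25, 11.32 and 11.57 in MA/MyJ, 10.40, 10.38, 10.36 and 10.36 in NZW/LacJ, 10.88, 10.67, 10.62 and 10.62 in SM/J and 10.83, 10.66, 10.53 and 10.85 in WSB/EiJ. MA/MyJ lay above and NZW/LacJ below all other vehicle animals, and SM/J and WSB/EiJ overlapped. The contrasts were 0.81 ± 0.06 for MA/MyJ (adjusted p = 7.92e-10) and -0.56 ± 0.06 for NZW/LacJ (adjusted p = 4.58e-07). MA/MyJ was also higher for Mrpl39 (0.46), Mrpl34 (0.44) and Mrps10 (0.43) and lower for Mrpl3 (-0.35), Mrpl23 (-0.32), Mrps26 (-0.25) and Mrps31 (-0.22). NZW/LacJ was higher for Mrps17 (0.44) and Mrps18a (0.33) and lower for Mrps6 (-0.65), Mrpl39 (-0.63) and Mrps10 (-0.60). The calls of Mrps10 in both strains and of Mrpl3 rest on 1 probe set: with the mean of all probe sets they were at 0.01, -0.09 and -0.08.

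In WSB/EiJ Mrps26, a small-subunit protein without a bacterial counterpart, read 10.02, 10.03, 10.30 and 9.76 with vehicle, above all vehicle animals of the other strains, which lay between 9.02 and 9.54. Its contrast was 0.70 ± 0.08 (adjusted p = 2.79e-07), and Mrps36 (0.63), Mrps31 (0.55) and Mrps18b (0.48) were higher too. Mrpl14 (-0.36), Mrpl49 (-0.35), Mrpl27 (-0.30) and Mrpl28 (-0.26) were lower there. SM/J was higher for Mrpl50 (0.36), Mrpl39 (0.29), Mrpl23 (0.29) and Mrpl42 (0.24) and lower for Mrps26 (-0.34), Mrpl20 (-0.24), Mrps30 (-0.23) and Mrps23 (-0.22). Of the vehicle contrasts named, those of Mrps31 in MA/MyJ and of Mrpl14 and Mrpl49 in WSB/EiJ were lost in 24, 20 and 10 of the 31 fits without 1 array. In 1 to 3 of these fits the calls of Mrpl34, Mrpl23 and Mrps26 in MA/MyJ, of Mrpl39, Mrpl23, Mrpl42, Mrpl20 and Mrps30 in SM/J, and of Mrps18b and Mrpl28 in WSB/EiJ were lost too.

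Other genes of mitochondrial translation also fell in WSB/EiJ, where 12.4% of all tested genes were lower. Counts and values here are over all arrays, the array in doubt included, unless marked otherwise. Of 4 further proteins of the ribosome, 3 were lower: Ptcd3 (-0.61), Gadd45gip1 (-0.45) and Chchd1 (-0.39). The fourth, Dap3, was at -0.14 there (adjusted p = 0.316) and rose in MA/MyJ (0.54) and NZW/LacJ (0.43). Of 13 translation factors, 8 were lower (median -0.39), and 11 without animal 3 (median -0.53). The release factor gene Mtrf1l (-0.86), the recycling factor Gfm2 (-0.84) and the elongation factor Tufm (-0.57) fell furthest. Of 18 mitochondrial tRNA synthetase and amidotransferase genes, 4 were lower and 9 without animal 3, led by Ears2 (-0.87), Tars2 (-0.65) and Hars2 (-0.49), which charge tRNAs with glutamate, threonine and histidine. Of 24 assembly and rRNA modification factors, 7 were lower and 1 higher, with the rRNA methyltransferase Mrm2 at -1.02, Mettl15 at -0.76 and Mpv17l2 at 0.67. Of 12 genes for transcription and replication of mitochondrial DNA, 4 were lower, with Mterf2 at -1.04, the single-strand binding protein Ssbp1 at -0.76 and the topoisomerase Top1mt at -0.43. Of 11 chaperones and proteases of the matrix, 4 were lower, among them Dnaja3 (-0.47) and both parts of a matrix protease, Clpx (-0.46) and Clpp (-0.44). Without animal 3 some of these values moved: Tars2 was then at -0.44, Mtrf1l at -1.24 and Mrm2 at -1.35.

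In NZW/LacJ, where 15.1% of tested genes were higher on the deposited scale, 5 of the 13 translation factors were higher and 1 lower (median 0.12). Mtfmt, which formylates the initiator tRNA, was at 0.52, Slirp, which stabilises mitochondrial messengers, at 0.37 and the recycling factor Mrrf at 0.37. Of the synthetase genes 5 were higher, led by Tars2 (0.60), Iars2 (0.43) and Gatb (0.42). Of the assembly factors 6 were higher and 1 lower, with Mettl15 at 1.19, Mettl17 at 0.75 and Mrm1 at -0.45. Of the mitochondrial DNA genes 3 were higher: Mterf2 (1.51), the polymerase Polg (0.89) and Top1mt (0.38). Of the chaperones and proteases 2 were higher, Spg7 (0.56) and Hspe1 (0.32), and 3 lower, with Clpx at -1.70. In the average over strains the largest changes among these lists were those of Clpx (-0.72), Mtrf1l (-0.36), Mettl15 (0.36), Mterf2 (0.31), Tfb2m (-0.29), Mpv17l2 (0.29) and Gfm2 (-0.27).

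Of 72 nuclear-encoded subunits of the respiratory complexes and the ATP synthase, 8 were lower in WSB/EiJ (median -0.03) and 20 without animal 3 (median -0.12, against 18.6% of tested genes lower). Over all arrays Ndufs7, of complex I, was at -0.38 there (-0.56 without animal 3), and Cox6a2 and Cox8b, muscle-type subunits of cytochrome c oxidase, at -0.49 and -0.45. In NZW/LacJ 2 were higher, Cox7a1 (0.75) and Ndufa6 (0.18), and 2 lower. Of 33 cytosolic ribosomal protein genes, 2 were lower in WSB/EiJ with and without that animal, Rpl12 (-1.34) and Rps6 (-0.44), and 1 was higher in NZW/LacJ, Rps20 (0.31). Of 10 regulators of mitochondrial biogenesis, 1 was higher and 2 were lower in WSB/EiJ over all arrays. The coactivator Ppargc1b rose by 1.38 (adjusted p = 0.0179), or 2.12 without animal 3 (adjusted p = 4.5e-05), and the GABP subunits Gabpb1 (-0.67, adjusted p = 0.00207) and Gabpb2 (-0.47, adjusted p = 0.0105) fell. Nrf1, whose protein binds the palindrome shown in the promoters, was at -0.12 (adjusted p = 0.551), and in NZW/LacJ Yy1 was at -0.30 (adjusted p = 0.0161).

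Markers of other liver cells moved in the same samples. Counts and levels for WSB/EiJ here are over all arrays, the array in doubt included. Of all tested genes 15.1% were higher in NZW/LacJ, 6.91% in WSB/EiJ, 3.17% in MA/MyJ and 1.6% in SM/J. Lower were 6.4% in NZW/LacJ and 12.4% in WSB/EiJ. In WSB/EiJ 8 of 12 Kupffer cell markers, of the resident macrophages, were higher and their mean level went from between 7.62 and 8.29 to between 8.96 and 9.35. In NZW/LacJ 2 of the 12 were higher, near the share of tested genes, with mean levels from 9.02 to 9.55 and, with drug, from 8.94 to 10.72. Of 10 markers of recruited or lipid-laden macrophages, 7 were higher in NZW/LacJ (7.07 to 7.22, then 7.65 to 9.10) and 2 in WSB/EiJ (6.84 to 6.997, then 7.12 to 7.98). MA/MyJ, with few member changes, had 7 of 12 and 7 of 10 of these lists higher, and SM/J 0 and 1. Sinusoidal endothelial markers had 2 of 10 lower and 1 higher in both NZW/LacJ and WSB/EiJ. Of the 15 hepatocyte markers 2 were higher and 1 lower in NZW/LacJ, near the shares of tested genes, with a median of 0.01. In WSB/EiJ their median was -0.01. Macrophage markers were higher both where members were lower and where they were higher on the deposited scale, and their part in the member values was not tested.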

How the data were processed

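Per the submitters' processing notes, the authors made the deposited log2 values from 1-colour Affymetrix arrays with Affymetrix Power Tools and RMA, which corrects background, normalises by quantiles and summarises each probe set; versions, scan dates and detection calls are not given in the sources used here. The values came from 44721 probe sets, of which 34728 carried 1 symbol and 872 several. Genes above the median of all values, 6.49, in at least 3 arrays were tested. The software limma 3.58.1 (R 4.3.3, with the package data.table at 1.17.8) took 31 arrays and 8 group means in one linear model, and p-values were adjusted over 12890 genes, two-sided, with a threshold of 0.05. Errors with ± are model standard errors unless marked SD, and the number of arrays limits the precision. The labels do not say how animals were batched. The procedure was checked on simulated data.

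The members, lists and contrasts were chosen with earlier results of these data known. Named were, among members past the threshold, the 6 largest up and the 6 largest down for each drug contrast, the 8 smallest p for the interaction tests, the 4 largest in each direction for vehicle levels, and the 3 largest per pathway list in the average, in WSB/EiJ and in NZW/LacJ (the average is given in part); others were named after their values were seen. Alternatives covered the dim filter, probe sets, centring, a replicate block, the groups in the fit and leaving out each array.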

Additional observations from a re-analysis of the deposited data

Results flagged for a closer look

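Single animals stood apart from the rest of their group of 4 by Dixon's test in 7 of 126 sets of values tested, and chance alone gives such a result in about 5% of sets. The small-subunit score of MA/MyJ treated animal 4 was 0.0192, below 0.0433 to 0.0452 in the other treated animals. Mrpl14 read 9.91 in NZW/LacJ vehicle animal 2, below 10.04 to 10.06 in the others. Mrps6 read 9.41 in WSB/EiJ vehicle animal 4, below 9.68 to 9.70. Mrpl42 read 11.57 in MA/MyJ vehicle animal 4, above 11.33 to 11.37, and 11.53 in NZW/LacJ treated animal 1, below 11.64 to 11.66. Mrpl27 read 10.45 in SM/J vehicle animal 4, above 10.21 to 10.25, and Mrps12 read 10.44 in NZW/LacJ treated animal 4, below 10.55 in the other treated animals.

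The drug effect differed between strains by limma's test of the difference for the members named in the report. Over the 4 strains the adjusted p was 6.05e-05 for Mrpl50, 8.37e-05 for Mrpl42, 0.000156 for Mrpl17, 0.000161 for Mrpl24, 0.000189 for Mrps14, 0.000281 for Mrpl1, 0.000501 for Mrps15 and 0.000833 for Mrpl16. Between NZW/LacJ and WSB/EiJ it was 7.51e-06 for Mrpl50, 9.55e-06 for Mrpl42, 1.36e-05 for Mrpl24, 1.54e-05 for Mrps14, 2.16e-05 for Mrpl17, 3.03e-05 for Mrpl1, 7.44e-05 for Mrps15 and 0.000140 for Mrpl23.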

How the results depend on the processing

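No named call that has a direction reversed under the alternatives run; the interaction test has none. With arrays centred on the median of the tested genes, 25 members passed in the average (4 higher, 21 lower), 2 in MA/MyJ (0 higher, 2 lower) and 16 in the interaction test, the split in NZW/LacJ became 9 higher and 8 lower and in WSB/EiJ 3 higher and 22 lower, and the mean score was -0.0387 in MA/MyJ and 0.0018 in NZW/LacJ. The gene-wise shift of arrays, chosen after seeing the data, gave a score of 0.0846 in NZW/LacJ. The mean of all probe sets of a gene gave 11 members and a score of 0.0632 in NZW/LacJ, and large minus small scores of 0.0387 there and 0.0115 in SM/J. Without the filter on dim genes 3 members passed in MA/MyJ and 0 in SM/J. In fits of only the groups compared, 2 passed in MA/MyJ, 2 in SM/J, 0 in WSB/EiJ and 20 for NZW/LacJ minus WSB/EiJ, and 4 in WSB/EiJ without treated animal 3, a combination chosen after seeing the data. Leaving out both WSB/EiJ arrays that lay apart, also chosen afterwards, gave 25 in the average and 4 in SM/J. Animal numbers did not pair the samples: deviations of same-numbered animals correlated between -0.522 and 0.413, above 0.1 in 4 of 15 pairs. With animal number as a replicate block 3 members passed in MA/MyJ and 0 in SM/J; by limma the other counts stayed within 1.5 times. Leaving out single arrays gave 14 to 24 members in the average, 0 to 7 in MA/MyJ, 11 to 19 in NZW/LacJ, 0 to 3 in SM/J, 14 to 40 in WSB/EiJ, 22 to 38 in the interaction test, 24 to 40 for NZW/LacJ minus WSB/EiJ, and for vehicle levels 37 to 57 over all strains, 13 to 26 in MA/MyJ, 20 to 31 in NZW/LacJ, 7 to 15 in SM/J and 20 to 32 in WSB/EiJ. Scores then ran from 0.01 to 0.05 in MA/MyJ, 0.10 to 0.12 in NZW/LacJ, -0.09 to -0.03 in SM/J and -0.26 to -0.17 in WSB/EiJ, and large minus small scores from -0.03 to -0.02, -0.01 to -0.00017, -0.02 to -0.01 and -0.08 to -0.02. Except where a cause follows from the alternative itself, as with fewer arrays in a fit, the cause was not tested. The number of arrays, 2 or 3 treated animals in WSB/EiJ, limits these counts. Shares of all tested genes are not given in this section, so its counts cannot be set against a background.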
